A study of Mus musculus with 11 samples.

Results

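The members described here are the genes of the mitochondrial carrier family (Slc25a), the subunits of the outer and inner membrane import complexes (TOM and TIM), the fusion GTPases Mfn1, Mfn2 and Opa1, and the uncoupling proteins Ucp1 to Ucp3. They were chosen by gene symbol among the probes of the array. A gene was kept when a probe was well above background on at least 5 of 11 arrays, with the brightest probe standing for it. The rule names no difference between groups, but the members were chosen with earlier results of these data known. The filter can also be met by either group alone, and Slc25a43 met it with 3 HFD and 5 CO arrays. Of 78 genes with a matching symbol and a probe on the array, 74 were kept, out of 17188 genes tested in all.

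RNA came from the hypothalamus of male C57BL/6N mouse offspring at P21. In the HFD group (n = 6) the dams had received a high-fat diet from weaning through pregnancy and lactation, and in the CO group (n = 5) the dams had received standard chow over the same time. No mutant allele was involved, and the offspring themselves received no treatment. One-colour arrays were used, 1 per sample. The labels do not say whether a sample is a single animal or which samples share a dam, so the p-values reflect only how far these samples vary.

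Most mitochondrial proteins are encoded in the nucleus. They enter through the TOM pore of the outer membrane and are then passed to the TIM23 complex, which takes proteins with a cleavable presequence, or by small TIM chaperones to the TIM22 complex, which inserts the carriers into the inner membrane. The carriers themselves exchange nucleotides, phosphate, amino acids, citric acid cycle intermediates, acylcarnitines, metals and cofactors across the inner membrane, and in the hypothalamus mitochondrial fusion, fatty acid entry and uncoupling are known to take part in the nutrient sensing of feeding neurons.

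All levels below are log2 signals relative to the 75th percentile of the same array, so they describe a probe across samples and are not compared between genes. The 75th percentile of the signals was 3135 to 3447 on HFD arrays and 2216 to 2932 on CO arrays, and 71.8% to 77.4% of mouse spots were well above background on HFD arrays, against 82.5% to 85.7% on CO arrays. The groups were scanned in separate sessions 337 days apart, on different slides, so diet and scan session cannot be told apart in any comparison here. Arrays correlated at r = 0.991 to 0.997 within HFD, at 0.990 to 0.996 within CO and at 0.959 to 0.977 between the groups, across probes. On this scale 8 spike-in control probes lay 0.68 higher (log2) on HFD than on CO arrays (p = 0.00216 by a two-sided exact permutation test, which is the lowest value that 462 splits allow). Hypothalamic markers from Pomc to Oxt were tested for 20 of 20 listed genes, of which Sim1 was not well above background on any CO array. In whole tissue, fewer cells of a type and less RNA per cell cannot be told apart.

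Of the 74 members, 14 were higher and 26 were lower in HFD offspring, and 34 did not pass the test (limma, Benjamini-Hochberg adjusted p under 0.05 over all genes). Over all genes tested the same test called 66.4%, of which 22.2% of genes were higher and 44.1% were lower, so 54.1% of the members were called against that background. The median log2 difference, HFD minus CO, was -0.07 over the members and -0.17 over all genes. The members' differences lay between -0.92 (Slc25a20) and 0.95 (Mfn1). On the brightest probes no member reached a 2-fold difference, against 15.6% of all genes that were called and at least 2-fold apart. Other probes of Slc25a53 (-1.73), Slc25a44 (-1.15) and Slc25a46 (1.07) did reach it. All HFD samples lay above all CO samples for 7 members and below them for 13, where 16.1% and 30.5% of all genes did so.

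The directions hold on the scale set by the 75th percentile of each array. When the arrays were scaled to the spike-in probes instead, the median over all genes moved by -0.68, and 1 member was higher and 64 were lower. Of all genes, 5.50% were then higher and 83.7% lower. Of the 14 members that were higher, Mfn1, Slc25a46 and Slc25a36 stayed positive on that scale and the other 11 turned negative, while the 26 lower members stayed lower. Relative to the median of all genes, the members' median was 0.10 higher on both scales. This scaling moves every gene by about the same amount. That offset therefore could not change, and the lower members could only stay lower, so neither is a check of the result.

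Carriers and import complexes are counted separately. These counts, and those of the role groups below, stand beside 22.2% of all genes higher and 44.1% lower, with a median of -0.17. Of 47 carriers, with the uncoupling proteins among them, 10 were higher, 20 were lower and 17 did not pass, with a median difference of -0.14. Of 24 TOM and TIM genes, 3 were higher, 6 were lower and 15 did not pass, with a median of 0.02. For comparison, 22 of 92 genes of the respiratory chain and ATP synthase were higher and 18 were lower (median 0.02), and 12 of 78 mitochondrial ribosomal protein genes were higher and 23 were lower (median -0.07). These are counts side by side, and the difference between the lists was not tested.

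**Figure D1:**
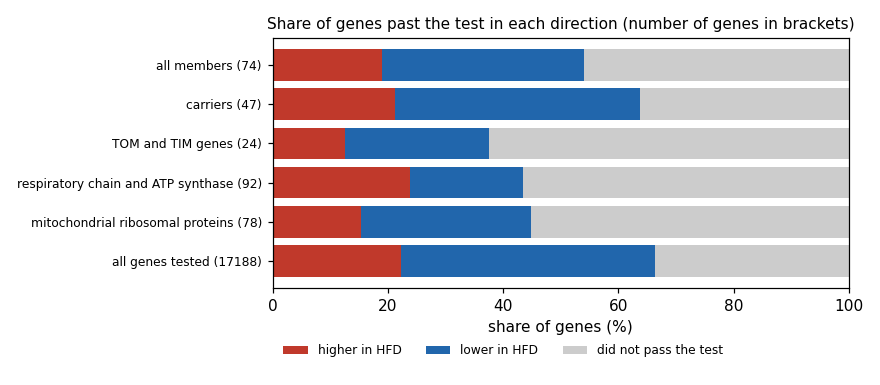
Share of genes (%) that were higher in HFD (red), lower in HFD (blue) or did not pass the limma test (grey), for the members, for the carriers and the TOM and TIM genes among them, for other mitochondrial genes and for all genes tested. Of the members 54.1% were called, and of all genes 66.4%, on the scale set by the 75th percentile.

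**Figure D2:**
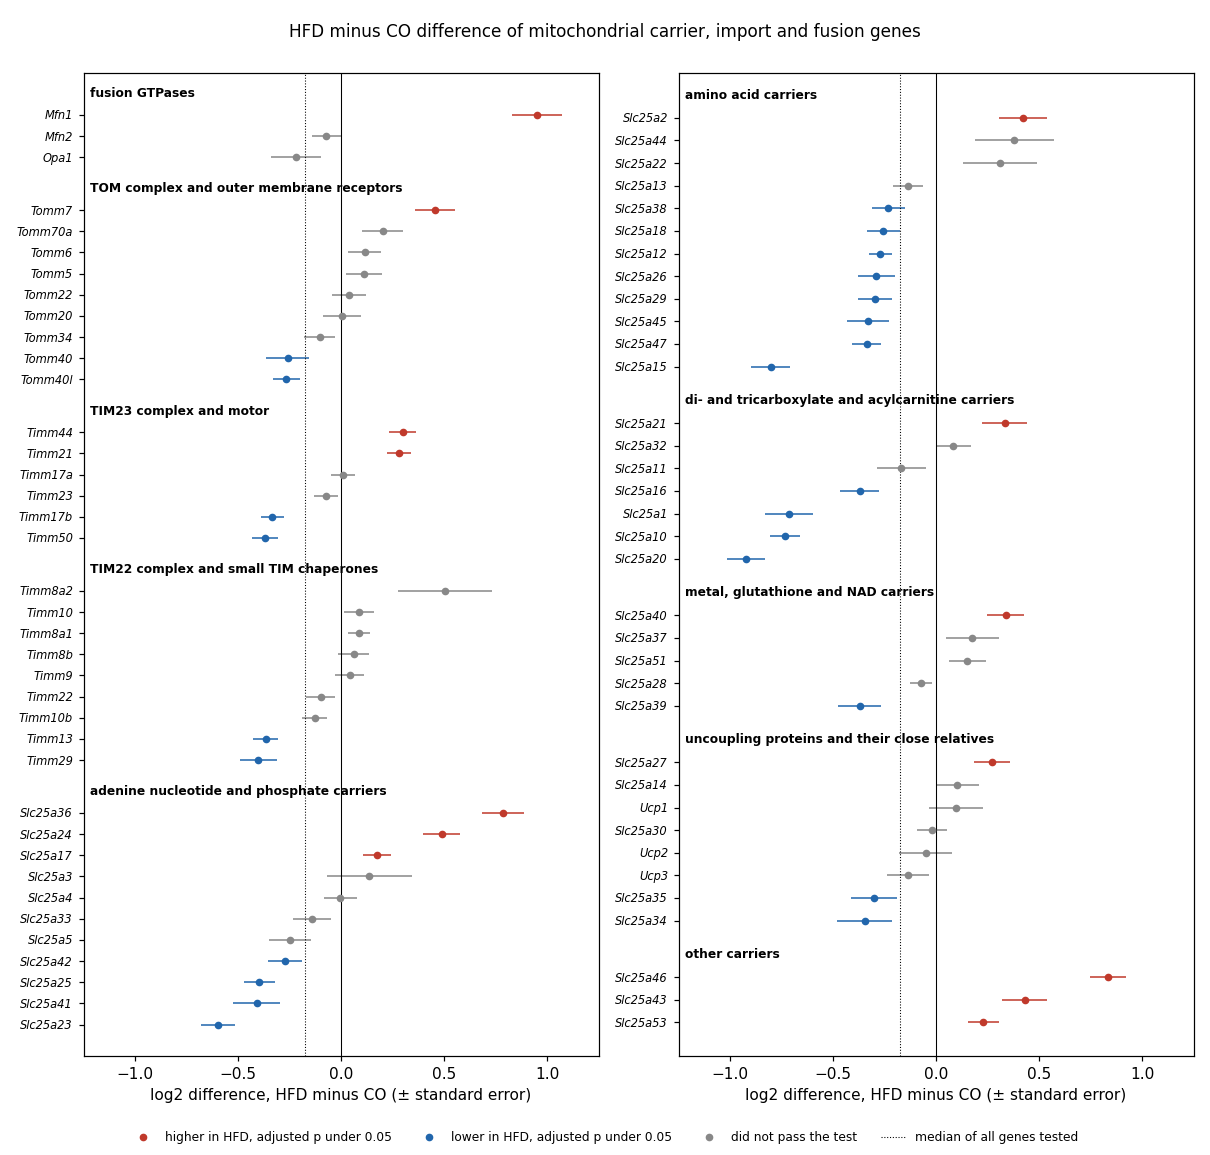
Log2 difference, HFD minus CO, of the members with its standard error, grouped by role, with 1 member left out. Red points were higher and blue points lower in HFD offspring at an adjusted p under 0.05, grey points did not pass, and the dotted line marks the median of all genes tested, -0.17. Scaled to the spike-in probes, the red points other than Mfn1, Slc25a46 and Slc25a36 fall below 0.

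Some samples stood apart from their own group. For 27 of 73 members measured in all CO samples, CO replicates 1 and 3 had the lowest CO levels, and for 16 they had the highest, where the shares over all genes tested were 22.2% and 15.9%. HFD replicate 1 lay away from the other HFD samples for Slc25a3, Slc25a22, Slc25a32 and Slc25a39. With these 3 samples left out, a choice made after their values had been seen, 16 members were higher and 26 were lower in HFD offspring. Of all genes, 21.7% were then higher and 42.2% lower.

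The pattern was clearest for Slc25a3, the phosphate carrier that supplies the ATP synthase. Its level was 2.68 to 3.28 (median 3.17) in HFD samples, with HFD replicate 1 the lowest, against 2.40, 3.40, 2.45, 3.21 and 3.43 in CO samples. The difference was 0.14 ± 0.21 (log2, SE) and did not pass (limma adjusted p = 0.574). The same CO samples, replicates 1 and 3, were also lowest for Slc25a22, Slc25a44, Opa1, Slc25a5 and Tomm40, and highest for Slc25a37 and Tomm70a. CO replicates 1 and 3 were not on the same slide, and CO replicates 1, 2 and 3 share the leading number of their labels.

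**Figure D3:**
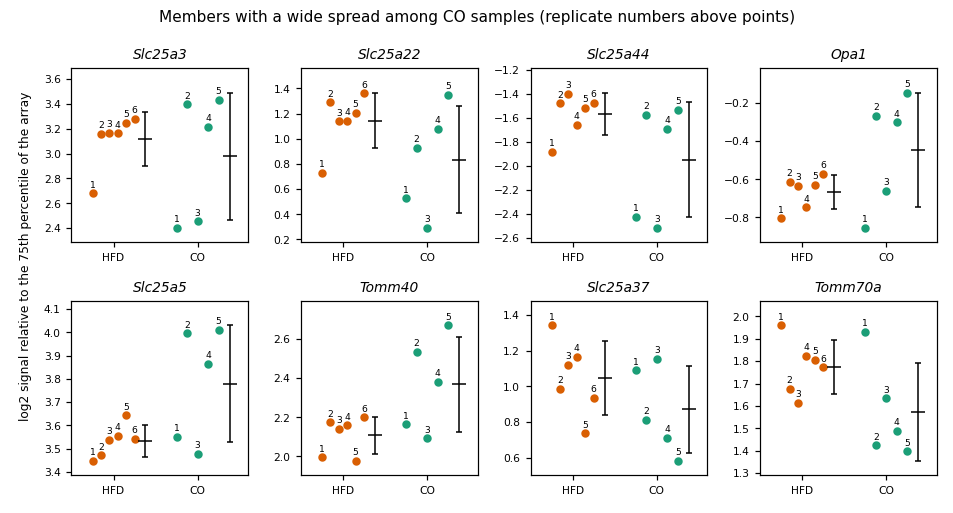
Level of 8 members by sample (log2 signal relative to the 75th percentile of the array), HFD samples in orange left of CO samples in green, with the replicate number above each point and the mean ± SD in black. CO replicates 1 and 3 lie below the other CO samples for the first 6 members shown and above them for Slc25a37 and Tomm70a.

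The fusion GTPases did not move together. Mfn1, which tethers and fuses outer membranes, was the member with the largest increase. Its level was 1.96 to 2.31 (median 2.03) in HFD samples, against 1.30, 0.88, 1.39, 1.33 and 0.80 in CO samples. The groups did not overlap, and Mfn1 was 0.95 ± 0.12 higher (1.93-fold, limma adjusted p = 4.00e-05). A separate probe for Mfn1 gave 0.91 ± 0.09. Its paralogue Mfn2 lay at 1.90 to 2.15 (median 2.10) in HFD samples and at 2.07, 2.27, 1.97, 2.18 and 2.21 in CO samples, which overlapped (difference -0.07 ± 0.07, adjusted p = 0.380). Opa1, the fusion GTPase of the inner membrane that also shapes cristae, lay at -0.80 to -0.57 (median -0.63) in HFD samples and at -0.86, -0.27, -0.66, -0.30 and -0.15 in CO samples. CO replicate 1 held the lowest Opa1 level and CO replicate 5 the highest, and the difference of -0.22 ± 0.12 did not pass (adjusted p = 0.126). Without CO replicate 1 it reached -0.32 with an adjusted p of 0.0146. Over all alternatives other than scaling to the spike-in probes, the Opa1 difference ranged from -0.40 to -0.02, with adjusted p-values from 0.00102 to 0.922. Mfn1 was also the only member still called higher when arrays were scaled to the spike-in probes (0.28, adjusted p = 0.0472).

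The promoter of Mfn1 is shown because it holds a motif of ETS factors, which are known to drive many nuclear genes for mitochondrial proteins. It is the RefSeq sequence of GRCm38.p6, chr3:32529232-32529531 on the plus strand, from 250 bases before to 50 bases after a start site at 32529482, which lies 39 bases inside the span annotated for the gene, with the motif CCGGAAGT in capitals, beginning 44 bases before that start site.
Mfn1: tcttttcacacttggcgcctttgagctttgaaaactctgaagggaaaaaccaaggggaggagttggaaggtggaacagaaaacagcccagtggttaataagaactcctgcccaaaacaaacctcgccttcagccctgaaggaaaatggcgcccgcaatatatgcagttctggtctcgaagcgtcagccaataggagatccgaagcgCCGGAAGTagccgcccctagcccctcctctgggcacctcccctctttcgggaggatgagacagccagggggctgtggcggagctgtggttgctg
Promoters were given for 60 of the 74 members, 74 promoters in all. The ETS letters CCGGAAGT, on either strand, occurred in 8 of them (10.81%), against 3.89% of 32851 promoters of the same length in the table. The 8 genes were Mfn1, which was higher, Slc25a20 and Timm29, which were lower, and Timm10, Timm10b, Timm23, Timm8a2 and Tomm70a, which did not pass.

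The E-box CACGTG, which reads the same on both strands, occurred in 11 promoters of 10 members (14.9%, against 7.15% of all promoters). Of the 10 members 1 was higher, 2 were lower and 7 did not pass. The letters of NRF1, a factor of mitochondrial biogenesis, were searched on both strands as GCGCA, any base and GCGC, and occurred in 4 promoters (5.41%, against 4.60%), those of Opa1, Slc25a3, Timm8b and Tomm20, none of which passed. On either strand, the letters TCAAGGTCA of oestrogen-related receptors occurred in 1 promoter (1.35%, against 0.423%), and AAGATGGCG of YY1 in 2 (2.70%, against 1.40%). A match says only that these letters stand in the window.

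**Figure D4:**
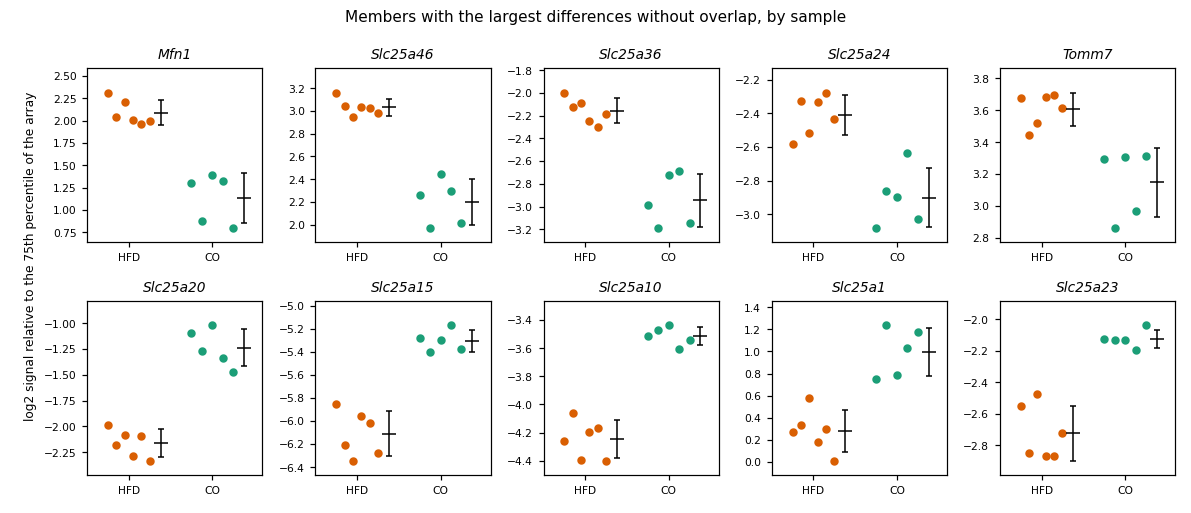
Level of 10 members by sample (log2 signal relative to the 75th percentile of the array), HFD samples in orange left of CO samples in green, with the mean ± SD in black. The upper row shows 5 members with all HFD samples above all CO samples, led by Mfn1, of which Slc25a24 and Tomm7 turn negative when scaled to the spike-in probes, and the lower row 5 members with all HFD samples below all CO samples, led by Slc25a20.

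In the TOM complex most subunits did not pass the test. Of 9 genes, 1 was higher and 2 were lower, with a median difference of 0.04. Tomm7, a small subunit that modulates the assembly of the pore, had 3.44 to 3.70 (median 3.65) in HFD samples, against 3.29, 2.86, 3.31, 2.97 and 3.31 in CO samples. The groups did not overlap (0.46 ± 0.10, adjusted p = 0.00146), but a separate, much dimmer probe for Tomm7 gave -0.09 ± 0.05, and with normexp background correction the brightest probe had an adjusted p of 0.0524. Tomm40, the pore itself, lay at 1.98 to 2.20 (median 2.15) in HFD samples and at 2.16, 2.53, 2.09, 2.38 and 2.67 in CO samples. HFD samples overlapped with CO replicates 1 and 3 only, and the difference was -0.26 ± 0.10 (adjusted p = 0.0434). The Tomm40 call held without CO replicate 1, CO replicate 3 or HFD replicate 6 and was lost without any other single sample, with differences of -0.27 to -0.18 and adjusted p-values of 0.0542 to 0.107. It was also lost under quantile normalization, scaling to the median, normexp, no filter on dim probes, the replicate block and the Mann-Whitney test (differences of -0.28 to -0.19, adjusted p = 0.0504 to 0.167).

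The second Tomm40 probe gave -0.68, and Tomm40l, a paralogue of the pore, was lower without overlap at 0.03 to 0.31 (median 0.23) in HFD samples, against 0.41, 0.52, 0.44, 0.43 and 0.57 in CO samples (-0.27 ± 0.07, adjusted p = 0.00370). The import receptors overlapped between the groups. Tomm20, a receptor for presequences, had 2.30 to 2.68 (median 2.53) in HFD samples, against 2.35, 2.54, 2.37, 2.43 and 2.78 in CO samples (difference 0.00 ± 0.09, adjusted p = 0.965). Tomm70a, the receptor for carrier precursors, had 1.61 to 1.96 (median 1.79) in HFD samples, against 1.93, 1.42, 1.63, 1.49 and 1.40 in CO samples, with CO replicate 1 near the top of the HFD range (0.20 ± 0.10, adjusted p = 0.0975). Without CO replicate 1 its difference was 0.29, with an adjusted p of 0.00873. The receptor subunit Tomm22, the small subunits Tomm5 and Tomm6 and the cytosolic co-chaperone Tomm34 had differences between -0.10 and 0.11, none of which passed.

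The TIM23 complex split by subunit. Of 6 genes, 2 were higher and 2 were lower, and all 4 calls held under every alternative other than scaling to the spike-in probes, where Timm44 and Timm21 turned lower. Timm44, which anchors the import motor to the channel, had 2.17 to 2.34 (median 2.25) in HFD samples, against 2.08, 1.92, 1.98, 1.75 and 2.01 in CO samples. The groups did not overlap (0.30 ± 0.06, adjusted p = 0.00162). Timm21, which bridges the channel to the TOM complex and to the respiratory chain, had -0.89 to -0.65 (median -0.76) in HFD samples, against -1.07, -1.10, -0.99, -1.07 and -0.93 in CO samples, again without overlap (0.28 ± 0.06, adjusted p = 0.00134).

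Timm50, the presequence receptor of the complex, moved the other way, with -0.20 to -0.05 (median -0.12) in HFD samples, against 0.20, 0.38, 0.10, 0.25 and 0.31 in CO samples (-0.37 ± 0.06, adjusted p = 3.11e-04). The HFD samples all lay below the CO samples, as they did on the second Timm50 probe, which gave -0.75. Timm17b, one of the alternative channel subunits, had 1.20 to 1.34 (median 1.24) in HFD samples, against 1.63, 1.74, 1.56, 1.48 and 1.53 in CO samples (-0.33 ± 0.06, adjusted p = 3.61e-04), while its paralogue Timm17a had a difference of 0.01 ± 0.06 that did not pass. The channel gene Timm23 itself lay at 2.74 to 2.92 (median 2.83) in HFD samples and at 2.97, 2.95, 2.82, 2.83 and 2.96 in CO samples, which overlapped (-0.08 ± 0.06, adjusted p = 0.274).

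Among the 9 genes of the TIM22 complex and the small TIM chaperones, none was higher and 2 were lower, with a median of 0.04. Timm13, a chaperone that escorts precursors across the intermembrane space, had 3.68 to 3.84 (median 3.77) in HFD samples, against 4.16, 4.25, 4.06, 3.98 and 4.22 in CO samples. No sample overlapped (-0.37 ± 0.06, adjusted p = 2.79e-04), although the call was lost with normexp background correction (-0.19, adjusted p = 0.120). Timm29, a subunit of the TIM22 complex, was -0.40 ± 0.09 with an adjusted p of 0.00224, and CO replicate 3 lay within the HFD range. The other 7 genes had differences between -0.13 (Timm10b) and 0.51 (Timm8a2). Timm10b passed without CO replicate 4 (-0.17, adjusted p = 0.0187), and Timm8a2, whose spots were among the dimmest of the members, passed without CO replicate 2 (0.60, just under the threshold) or without HFD replicate 1 (0.67, adjusted p = 0.00652), and under quantile normalization (1.04, adjusted p = 2.25e-04), while with normexp its difference was -0.011. Timm8a2 also passed under scaling to the median and with the replicate block, and Timm10b with slide as a block (-0.13, adjusted p = 0.0484). Timm10 passed under quantile normalization (0.15, adjusted p = 0.0430) and normexp (0.28, adjusted p = 0.0394). Timm8a1 passed with normexp (0.26, adjusted p = 0.0114).

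Carriers of nucleotides, phosphate and cofactors moved in both directions. Of 12 genes, 3 were higher and 5 were lower, with a median of -0.19. The ADP/ATP carriers, through which mitochondrial ATP leaves in exchange for ADP, did not pass. Slc25a4 had 5.80 to 6.12 (median 5.94) in HFD samples, against 6.10, 5.83, 6.06, 5.80 and 5.86 in CO samples, with a difference of -0.00 ± 0.08 (adjusted p = 0.973). Slc25a5 had 3.45 to 3.64 (median 3.54) in HFD samples, against 3.55, 4.00, 3.48, 3.87 and 4.01 in CO samples (-0.25 ± 0.10, adjusted p = 0.0509). Only CO replicates 1 and 3 lay within its HFD range, and without CO replicate 1 or CO replicate 3 the Slc25a5 difference was -0.30 or -0.32, with adjusted p-values of 0.0233 and 0.0104.

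Slc25a36, which carries pyrimidine nucleotides, was higher in HFD offspring. It had -2.30 to -1.999 (median -2.15) in HFD samples, against -2.98, -3.19, -2.72, -2.69 and -3.14 in CO samples. No sample overlapped, and the difference was 0.79 ± 0.10 (1.73-fold, adjusted p = 4.53e-05). The related pyrimidine nucleotide carrier Slc25a33 was -0.14 ± 0.09 and did not pass. Its second probe was called lower (-0.30 ± 0.10, adjusted p = 0.0171), as was its brightest probe with normexp (-0.40, adjusted p = 0.0140). The promoter of Slc25a36 is shown because it is the one higher member with an E-box. It lies at chr9:97110992-97111291 on the minus strand (RefSeq, GRCm38.p6), and the capitals mark CACGTG, which begins 187 bases before the start.
Slc25a36: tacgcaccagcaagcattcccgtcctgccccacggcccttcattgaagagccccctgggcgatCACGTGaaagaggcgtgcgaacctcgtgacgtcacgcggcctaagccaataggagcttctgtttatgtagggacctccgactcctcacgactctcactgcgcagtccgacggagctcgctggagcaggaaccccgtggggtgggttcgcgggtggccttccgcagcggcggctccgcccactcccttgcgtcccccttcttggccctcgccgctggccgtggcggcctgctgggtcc

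The ATP-magnesium/phosphate carriers, which load the matrix with adenine nucleotides and of which several respond to calcium, did not share a direction. Slc25a24 had -2.58 to -2.28 (median -2.38) in HFD samples, against -3.08, -2.86, -2.90, -2.64 and -3.03 in CO samples. Its groups did not overlap (0.49 ± 0.09, adjusted p = 4.84e-04), and with normexp background correction its adjusted p was 0.0529. Slc25a23 had -2.87 to -2.47 (median -2.79) in HFD samples, against -2.12, -2.13, -2.13, -2.20 and -2.04 in CO samples. Every HFD sample lay below every CO sample (-0.60 ± 0.08, adjusted p = 7.64e-05). Slc25a25 had 1.57 to 1.94 (median 1.66) in HFD samples, against 2.07, 2.23, 2.00, 2.10 and 2.09 in CO samples, likewise without overlap (-0.40 ± 0.08, adjusted p = 7.10e-04), and its second probe gave -0.51.

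Slc25a41, the short member of this subfamily, was lower with overlap (-0.41 ± 0.11, adjusted p = 0.00719), and under quantile normalization its difference was -0.03 (adjusted p = 0.862), and its call was also lost with normexp and the replicate block. Slc25a42, a coenzyme A carrier, was -0.27 ± 0.08 (adjusted p = 0.0130), a call lost under scaling to the median, normexp, the replicate block and the Mann-Whitney test. Slc25a17, a carrier of peroxisomes, was 0.17 ± 0.07 (adjusted p = 0.0444). Its call held only without CO replicate 3 or HFD replicate 3 among the single samples left out, and was lost without any other one (0.15 to 0.19, adjusted p = 0.0527 to 0.0946). Normexp, the replicate block and the Mann-Whitney test each ended it too.

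Of 12 genes grouped as amino acid carriers, 8 were lower and 1 was higher, with a median of -0.26. Slc25a47 and the S-adenosylmethionine carrier Slc25a26 were counted among them, both lower. However, with normexp background correction 8 of the 9 calls were lost. Over all genes, 44.1% were lower and 22.2% higher, with a median of -0.17. Normexp also lowered the share of all genes called, from 66.4% to 38.1%. Slc25a15, the ornithine carrier of the urea cycle, had the largest decrease of the group. Its level was -6.34 to -5.86 (median -6.11) in HFD samples, against -5.28, -5.40, -5.30, -5.17 and -5.38 in CO samples. The groups did not overlap (-0.80 ± 0.09, 1.75-fold, adjusted p = 2.09e-05), but the spots were dim and with normexp the difference was -0.47 (adjusted p = 0.404). Its relative Slc25a2, also an ornithine carrier, was higher with 1 CO sample inside the HFD range (0.42 ± 0.12, adjusted p = 0.00778) and lost its call with normexp (0.14, adjusted p = 0.825).

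The aspartate/glutamate carrier Slc25a12 of the malate-aspartate shuttle, which brings reducing equivalents into neuronal mitochondria, was the amino acid carrier whose call held under all alternatives run. It had 2.64 to 2.89 (median 2.76) in HFD samples, against 3.10, 3.03, 3.05, 3.01 and 3.01 in CO samples. All HFD samples were below all CO samples (-0.27 ± 0.06, adjusted p = 0.00141). Its paralogue Slc25a13 was -0.14 ± 0.07 and did not pass (adjusted p = 0.117), except without CO replicate 2 (-0.18, adjusted p = 0.0373).

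Of the 2 glutamate carriers, Slc25a18 had 0.72 to 1.06 (median 0.88) in HFD samples, against 1.02, 1.17, 1.09, 1.34 and 1.10 in CO samples. The groups overlapped at CO replicate 1 (-0.26 ± 0.08, adjusted p = 0.0163), and scaling to the median, normexp and the replicate block each ended the call. Slc25a22 had 0.73 to 1.36 (median 1.17) in HFD samples, against 0.53, 0.93, 0.29, 1.08 and 1.35 in CO samples. It spread widely in CO, with replicates 1 and 3 lowest, and HFD replicate 1 stood below the other HFD samples (0.31 ± 0.18, adjusted p = 0.151). Without CO replicate 5 the difference of Slc25a22 was 0.44 (adjusted p = 0.0391).

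Slc25a47 was lower without overlap, at -2.49 to -2.20 (median -2.32) in HFD samples, against -2.01, -1.91, -2.06, -2.14 and -1.92 in CO samples (-0.34 ± 0.07, adjusted p = 0.00135). The glycine carrier Slc25a38, the S-adenosylmethionine carrier Slc25a26, the basic amino acid carrier Slc25a29 and Slc25a45 were lower with overlapping groups, with differences between -0.33 and -0.23. The Slc25a38 call was lost without CO replicate 1 (-0.20, adjusted p = 0.0554) and under quantile normalization, scaling to the median and the Mann-Whitney test. Slc25a44, a carrier of branched-chain amino acids, was 0.38 ± 0.19 (adjusted p = 0.0986) and passed without CO replicate 5 (0.48, adjusted p = 0.0463). A second probe, matched to Slc25a44 through another transcript accession, was lower in HFD offspring, at -1.15 ± 0.13.

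The carriers of di- and tricarboxylates and acylcarnitines held the largest decrease of all members. Of 7 genes, 4 were lower and 1 was higher. Slc25a16 and the folate carrier Slc25a32 were counted among the 7, and the median of -0.37 is the value of Slc25a16. Slc25a20, which exchanges acylcarnitines for carnitine and so admits long-chain fatty acids to oxidation, had -2.33 to -1.98 (median -2.14) in HFD samples, against -1.09, -1.26, -1.02, -1.33 and -1.47 in CO samples. All HFD samples lay below all CO samples, with a gap wider than the range of either group. The difference was -0.92 ± 0.09 (1.90-fold, adjusted p = 7.68e-06), and it kept its call under every alternative run, with values of -0.98 to -0.75 outside the spike-in scaling.

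Slc25a10, the dicarboxylate carrier that exchanges malate and succinate for phosphate, had -4.40 to -4.06 (median -4.23) in HFD samples, against -3.51, -3.47, -3.44, -3.60 and -3.54 in CO samples. Its groups did not overlap (-0.73 ± 0.07, adjusted p = 5.65e-06), but with normexp the difference was -0.51 (adjusted p = 0.157). Slc25a1, the citrate carrier that exports acetyl units for lipid synthesis, had 0.01 to 0.58 (median 0.29) in HFD samples, against 0.75, 1.24, 0.79, 1.03 and 1.17 in CO samples. The lowest CO samples were again replicates 1 and 3 and still lay above the highest HFD sample (-0.71 ± 0.12, adjusted p = 2.34e-04).

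Slc25a16 was lower with overlap (-0.37 ± 0.10, adjusted p = 0.00498). The oxodicarboxylate carrier Slc25a21 was 0.33 ± 0.11 (adjusted p = 0.0203) with 4 CO values, since its spot on CO replicate 4 was marked as an outlier by the software and left out. The Slc25a21 call was lost without CO replicate 2 (0.28, adjusted p = 0.0640) or CO replicate 5 (0.30, adjusted p = 0.0552), and with normexp its difference was -0.05. The oxoglutarate carrier Slc25a11, the other carrier of the malate-aspartate shuttle, and the folate carrier Slc25a32 did not pass (-0.17 and 0.08).

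The promoters of Slc25a20 and Slc25a1 are shown as those of lowered carriers of acylcarnitines and citrate that hold one of the motifs (RefSeq, GRCm38.p6). That of Slc25a20 lies at chr9:108661886-108662185 on the plus strand, with the ETS letters CCGGAAGT in capitals, beginning 79 bases before the start, and that of Slc25a1 at chr16:17928170-17928469 on the minus strand, with the E-box CACGTG in capitals, beginning 239 bases before the start.
Slc25a20: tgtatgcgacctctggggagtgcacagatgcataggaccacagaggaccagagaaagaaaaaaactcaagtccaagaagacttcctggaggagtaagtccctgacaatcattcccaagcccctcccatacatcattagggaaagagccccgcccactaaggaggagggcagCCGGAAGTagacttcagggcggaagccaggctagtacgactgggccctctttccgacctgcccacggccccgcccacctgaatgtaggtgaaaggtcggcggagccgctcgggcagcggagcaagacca
Slc25a1: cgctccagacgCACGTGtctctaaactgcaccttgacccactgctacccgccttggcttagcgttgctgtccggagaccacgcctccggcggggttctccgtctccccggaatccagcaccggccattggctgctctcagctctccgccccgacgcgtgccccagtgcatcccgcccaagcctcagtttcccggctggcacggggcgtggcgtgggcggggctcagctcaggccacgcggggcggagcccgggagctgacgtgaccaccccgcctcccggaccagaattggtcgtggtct
The same ETS letters thus stood in the promoter of the member with the largest increase and in that of the member with the largest decrease.

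On their brightest probes, carriers of metals, glutathione and NAD showed small differences with overlapping groups. Of 5 genes, 1 was higher and 1 was lower. These were the related glutathione carriers, with Slc25a40 at 0.34 ± 0.09 (adjusted p = 0.00536) and Slc25a39 at -0.37 ± 0.10 (adjusted p = 0.00795), and neither call held with normexp (0.03 and -0.40). The iron carriers Slc25a37 (mitoferrin 1) and Slc25a28 (mitoferrin 2) were 0.18 ± 0.13 and -0.07 ± 0.05, and the NAD carrier Slc25a51 was 0.15 ± 0.09, none of which passed. A second, dimmer probe of Slc25a37 was higher at 0.53 ± 0.10 (limma adjusted p = 8.10e-04 over all probes). A second probe of Slc25a51 was lower at -0.31 ± 0.06 (limma adjusted p = 5.41e-04 over all probes). The groups overlapped on neither of these second probes.

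None of the uncoupling proteins passed the test. Ucp1, which makes heat in brown fat by letting protons return to the matrix, was dim, with -6.60 to -5.92 (median -6.26) in HFD samples, against -6.42, -6.63, -6.21, -6.48 and -6.14 in CO samples (0.09 ± 0.13, adjusted p = 0.540). Ucp2, which is expressed in hypothalamic neurons, had -2.21 to -1.49 (median -1.85) in HFD samples, against -1.98, -1.52, -1.95, -1.72 and -1.84 in CO samples (-0.05 ± 0.13, adjusted p = 0.736). Ucp3, best known from muscle, had -2.45 to -1.88 (median -2.15) in HFD samples, against -1.87, -2.12, -1.93, -2.06 and -2.02 in CO samples (-0.14 ± 0.10, adjusted p = 0.257). The groups overlapped for all 3 genes on these probes. A dimmer probe of Ucp3 was lower in HFD offspring at -0.67 ± 0.13. Quantile normalization gave Ucp1 a difference of 0.58 (adjusted p = 0.00914).

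Slc25a27, also named UCP4, had 0.60 to 1.01 (median 0.74) in HFD samples, against 0.71, 0.37, 0.59, 0.53 and 0.36 in CO samples. CO replicate 1 lay inside the HFD range, and the difference of 0.27 ± 0.09 passed (adjusted p = 0.0169) but was 0.01 with normexp (adjusted p = 0.945). Slc25a14, also named UCP5, had 2.82 to 3.13 (median 2.96) in HFD samples, against 2.66, 3.09, 2.61, 2.78 and 3.10 in CO samples, and did not pass (0.10 ± 0.10, adjusted p = 0.397). Slc25a30 was -0.02 ± 0.07. Slc25a34 (-0.35 ± 0.13, adjusted p = 0.0377) and Slc25a35 (-0.30 ± 0.11, adjusted p = 0.0349) were lower with overlapping groups. The Slc25a34 call held only without CO replicate 4, HFD replicate 3 or HFD replicate 4 among the single samples left out and was lost without any other (-0.34 to -0.26, adjusted p = 0.0602 to 0.0852). The Slc25a35 call was lost without CO replicates 1 or 3 or HFD replicates 3, 4, 5 or 6 (-0.30 to -0.22, adjusted p = 0.0555 to 0.0872). Both calls were also lost under scaling to the median, normexp, the replicate block and the Mann-Whitney test, and that of Slc25a35 under quantile normalization, where its difference was -0.11 (adjusted p = 0.535).

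The 3 carriers outside these groups were higher, and of them Slc25a43 and Slc25a53 turned negative when scaled to the spike-in probes. Slc25a46, which unlike most of the family sits in the outer membrane and takes part in mitochondrial fission and fusion, had 2.95 to 3.16 (median 3.03) in HFD samples, against 2.26, 1.97, 2.45, 2.30 and 2.01 in CO samples. The groups did not overlap (0.83 ± 0.09, 1.78-fold, adjusted p = 1.02e-05), and its second, dimmer probe gave 1.07 ± 0.08. Like Mfn1, it was positive under every alternative run, though scaled to the spike-in probes it was 0.16 and did not pass (adjusted p = 0.182). Slc25a43 was 0.43 ± 0.11 (adjusted p = 0.00480), but was well above background on only 3 of 6 HFD arrays and on 5 of 5 CO arrays, and with normexp its difference was 0.011 (adjusted p = 0.989).

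Slc25a53 was the one member whose probes were called in opposite directions. Its brightest probe had -3.26 to -2.99 (median -3.19) in HFD samples, against -3.53, -3.40, -3.56, -3.27 and -3.24 in CO samples, with overlap (0.23 ± 0.08, adjusted p = 0.0201). That call was lost without CO replicate 1 (0.20, adjusted p = 0.0524) or CO replicate 3 (0.19, adjusted p = 0.0518). Its other probe had -7.23 to -6.77 in HFD samples, against -5.25, -5.03, -5.15, -5.47 and -5.19 in CO samples, a difference of -1.73 ± 0.10, and was well above background on 3 of 6 HFD arrays. The direction for Slc25a53 thus depended on the probe.

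Probes of the same gene are the one repeat of a member's measurement within these arrays. Of the 74 members, 22 had more than 1 probe that passed the filter, and for 16 of them all probes had the same sign. A call on 2 or more probes was made for 7 members, and the calls opposed each other for 1 of them (14.3%), against 15.2% of the 2434 genes in all with calls on 2 or more probes. The probes of Mfn1, Slc25a46, Slc25a25, Slc25a26, Timm50 and Tomm40 were called in the same direction. A call rested on the brightest probe alone for Tomm7, and the other probe alone was called for Slc25a33, Slc25a44, Slc25a37, Slc25a51 and Ucp3.

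**Figure D5:**
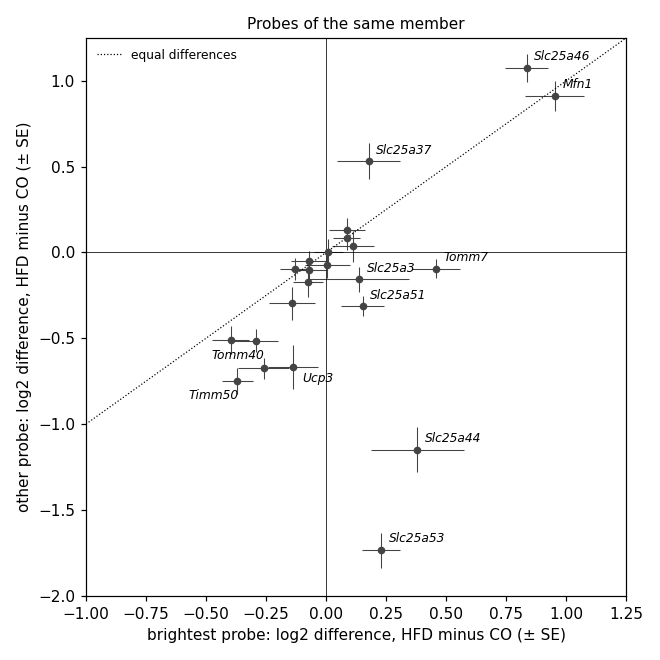
Log2 difference, HFD minus CO (± SE), of the brightest probe of a member against that of each other probe of the same member, for the 22 members with more than 1 probe. Points on the dotted line have equal differences, as for Mfn1 and near it Slc25a46, while Slc25a44 and Slc25a53 fall far below it.

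Genes around the members in the same pathways gave the following counts, beside 22.2% of all genes higher and 44.1% lower. Of 24 other import genes, 3 were higher and 13 were lower (median -0.22). Among them were the mitochondrial intermediate peptidase Mipep (-1.08), the outer membrane sorting subunit Samm50 (-0.48), the motor co-chaperone Grpel2 (-0.36) and the matrix chaperone Hspa9, which was higher (0.46). Of 23 other carriers and channels of the inner and outer membranes, 6 were higher and 11 were lower (median -0.08). They included the outer membrane channel Vdac1 (-1.53), the transporter Abcb8 (-0.45) and the sideroflexin Sfxn5, which was higher (0.47). Of 21 other genes of fusion, fission and cristae, 7 were higher and 10 were lower (median -0.19). The fission GTPase Dnm1l (1.35) and the protease Yme1l1 (1.46), which cleaves Opa1, were higher, and the stress-activated protease Oma1 (-0.96), which also cleaves Opa1, and the prohibitin Phb2 (-0.54) were lower. Of 15 regulators of mitochondrial biogenesis, 3 were higher and 4 were lower (median -0.04), with the polymerases Polg (-0.60) and Polrmt (-0.42) and the nuclear receptor Esrra (-0.53) lower and the coactivator Ppargc1b (0.65) higher.

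Markers of cell types and of neighbouring regions were counted with the same test, which called 22.2% of all genes higher and 44.1% lower. Their part in the members' differences was not tested. Of 12 neuronal markers 7 were higher and 1 was lower, with a mean deviation of 0.05 to 0.27 in HFD samples, against -0.26 to -0.10 in CO samples (log2, from each gene's mean over all arrays). Of 12 oligodendrocyte markers 1 was higher and 8 were lower (-0.19 to 0.05 in HFD samples, against -0.03 to 0.26 in CO samples). Of 12 striatal markers none was higher and 9 were lower (-1.31 to 0.17 in HFD samples, against -0.60 to 1.62 in CO samples), and of 10 thalamic markers 6 were higher and 2 were lower (0.02 to 0.33 in HFD samples, against -0.43 to 0.03 in CO samples). The other lists had 2 higher and 3 lower of 12 astrocyte markers, 3 and 6 of 12 microglial markers, 5 and 3 of 10 markers of vessels, 0 and 3 of 10 markers of ependyma and choroid plexus, 0 and 4 of 5 tested red blood cell markers, 5 and 1 of 20 hypothalamic markers, and 2 and 3 of 6 tested brown fat markers. HFD replicate 1 stood apart on a pair of these lists, with -0.37 for the hypothalamic markers, against 0.14 to 0.36 in the other HFD samples and -0.25 to -0.06 in CO samples, and with -1.07 for ependyma and choroid plexus, against -0.18 to 0.17 in the other HFD samples and -0.04 to 0.39 in CO samples. Apart from Sim1, every tested marker was well above background on at least 1 array of each group.

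The 4 genes of the rule that were not tested were Slc25a31, the testis ADP/ATP carrier, Slc25a48, Slc25a54 and Tomm20l. Slc25a31 was well above background on 0 of 6 HFD arrays and on 4 of 5 CO arrays. Slc25a48 was so on 1 HFD array and on 0 CO arrays, Tomm20l on 0 HFD arrays and on 1 CO array, and Slc25a54 on 0 arrays of either group.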

How the data were processed

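Hypothalamic RNA of 6 HFD and 5 CO samples was hybridized to one-colour Agilent mouse arrays. The authors deposited scanner files, whose values are spot intensity values on a linear scale with the background already subtracted by Feature Extraction (version 10.8 in the submitters' processing notes, 10.7.3.1 in the file headers). How the study normalized its arrays was not stated in the sources used. Control spots and spots marked as outliers were left out, spots of a probe were averaged, and log2 of the processed signal minus the 75th percentile of the array was used. Of 39429 probes, 26369 matched 19987 genes of GRCm38.p6 by accession without version, and 31790 probes were well above background on at least 5 arrays.

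HFD was compared with CO by limma 3.58.1 (lmFit and eBayes, two-sided, with statmod 1.5.0 for the blocks, under R 4.3.3) on the brightest probe of each of 17188 genes, with Benjamini-Hochberg adjustment over these genes and a threshold of 0.05. The scripts were tested on simulated data. The Rank Product test of the study was not used here because its null reorders genes within arrays. The number of arrays limits the precision. No array was identical to another, and no mouse spot was saturated.

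Values by sample are given for members past the threshold without overlap and well above background on all 11 arrays (up to 10 in each direction), for a fixed list of transporters, receptors and fusion genes, and for a member whose probes were called in opposite directions. Up to 4 genes of each pathway list with the smallest adjusted p are named. The values of 1 member and 1 pathway gene are not reported here, though both stay in the counts. The members, their roles and the marker and pathway lists were chosen with earlier results of these data known. Promoters came from RefSeq, and motifs were searched as plain letters. Alternatives included scaling to the median or to 8 spike-in probes, quantile normalization, normexp background correction with an offset of 50, other filters and probe rules, slide, replicate number or label number as a block, an exact Mann-Whitney test, and leaving out each array. Normexp was run on median signals because the files hold no mean signals, and this was decided after the files had been seen.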

Additional observations from a re-analysis of the deposited data

Results flagged for a closer look

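In 148 groups of a member's values, 8 held 1 sample far from the others (5.41%), where chance alone flags about 1 in 20. HFD replicate 1 was that sample for 4 members. Its level of Slc25a3 was 2.68, against 3.16 to 3.28 in the other HFD samples, its level of Slc25a22 was 0.73, against 1.14 to 1.36, and its level of Slc25a39 was -2.37, against -2.12 to -2.01. For Slc25a32 it was the highest HFD sample, at -1.93, against -2.13 to -2.10.

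HFD replicate 3 had 3.13 for Slc25a11, against 3.64 to 3.83 in the other HFD samples. Among CO samples, replicate 3 had -1.21 for Slc25a16, against -0.98 to -0.94 in the others, replicate 4 had -2.20 for Slc25a40, against -2.56 to -2.46, and replicate 5 had 1.78 for Slc25a42, against 1.57 to 1.63.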

How the results depend on the processing

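Counts of members depended on the scaling and on the background correction. With 14 higher and 26 lower members and a median of -0.07 as reported, quantile normalization gave 18 and 22 with a median of -0.031, scaling to the median 16 and 19 with a median of -0.011, and scaling to the spike-in probes 1 and 64 with a median of -0.75. Higher members made up 35.0% of the calls as reported, 45.0% under quantile normalization, 45.7% under scaling to the median and 1.54% under scaling to the spike-in probes. Normexp background correction left 7 higher and 12 lower members, and called 15.7% of all genes higher and 22.5% lower. The cause was not tested. Quantile normalization called 24.9% of all genes higher and 39.4% lower, and scaling to the median 24.5% and 37.3%. Scaling to the spike-in probes called 5.50% higher and 83.7% lower. The changes were thus not confined to the members. Leaving out 1 array at a time gave 13 to 14 higher and 23 to 26 lower members, with medians of -0.09 to -0.05. Of the members as called, 5 of 14 higher and 11 of 26 lower kept their call under every alternative other than scaling to the spike-in probes. The labels state no pairing of samples by replicate number. Deviations of same-numbered HFD and CO samples correlated at -0.10 to 0.18, which cannot decide whether samples were paired. With the replicate number as a block, 13 members were higher and 19 lower, with a median of -0.07, against 20.4% and 41.5% of all genes.

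Scaled to the spike-in probes, the sign turned for Timm10 and Timm8a1 (-0.59 each), Timm8b (-0.61), Timm8a2 (-0.17), Timm9 (-0.63), Timm44 (-0.38), Timm21 (-0.39), Timm17a (-0.67), Tomm7 (-0.22), Tomm70a (-0.47), Tomm6 and Tomm5 (-0.56 each), Tomm22 (-0.64) and Tomm20 (-0.67). Among the carriers it turned for Slc25a24 (-0.19), Slc25a44 (-0.30), Slc25a22 (-0.37), Slc25a17 (-0.50), Slc25a3 (-0.54), Slc25a2 (-0.25), Slc25a21 (-0.32), Slc25a32 (-0.59), Slc25a40 (-0.34), Slc25a37 (-0.50), Slc25a51 (-0.52), Slc25a43 (-0.25), Slc25a53 (-0.45), Slc25a27 (-0.41), Slc25a14 (-0.57) and Ucp1 (-0.58). Normexp turned Slc25a17 (-0.024) and Slc25a21 (-0.053), and averaging a gene's probes turned Slc25a44 (-0.38) and Slc25a53 (-0.75). Slc25a43, on 3 of 6 HFD arrays, and the other dim members are the least certain values here.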
